A study of Mus musculus with 18 samples.

Results

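TLR4-K730R macrophages were compared with TLR4-WT macrophages after LPS, in the 6 libraries of these 2 groups out of 18 libraries in the series. Members were chosen by their labels alone: 3 libraries of TLR4-K730R cells and 3 of TLR4-WT cells, all treated with LPS at 100 ng/mL for 6 h. The study asked how acetylation of lysines in the TIR domain of TLR4 bears on inflammatory signalling, and exchanged lysine 730 or lysine 810 for arginine, which cannot be acetylated. Peritoneal macrophages of the 3 genotypes were sequenced with and without LPS, which gave 6 groups of 3 libraries. The mutant mice were made with CRISPR/Cas9 on a C57BL/6 background, so the exchange was in every cell of the animal, and the macrophages were drawn into the peritoneum with thioglycolate. Age, sex and the number of animals behind a library were not stated, and nothing said that the 3 libraries of a group came from separate animals. The p-values below therefore measure only the spread between these libraries, which may be technical.

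TLR4 is the receptor for bacterial lipopolysaccharide. It binds LPS together with MD-2 (Ly96) and CD14, and its intracellular TIR domain then recruits adaptor pairs. MAL (Tirap) and MyD88 lead to NF-κB and MAP kinases and to genes of inflammatory cytokines and neutrophil chemokines, whereas TRAM and TRIF act from endosomes through TBK1 and IRF3 and lead to interferon-β, whose own receptor then switches on interferon-stimulated genes. Both arms are active in macrophages, and many of their targets feed back as inhibitors.

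The exchanged residue lies in exon 3 of Tlr4. The Tlr4 gene (ENSMUSG00000039005) spans chromosome 4 from 66827584 to 66930284 on the plus strand of GRCm38, and codon 730 occupies positions 66841159 to 66841161 in a coding sequence of 835 codons. The coding strand around it in the GENCODE transcript is shown because it holds the designed difference between the groups. Capitals mark the lysine codon, which the methods of the study give as changed from AAG to CGC.
Tlr4 codon 730: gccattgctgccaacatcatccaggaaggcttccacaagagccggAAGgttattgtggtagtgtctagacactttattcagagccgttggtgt

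Total reads were not given, so the depth was unknown, and the 6 libraries held between 81824 and 87593 rows of transcript events each. Values are FPKM, fragments per kilobase of transcript scaled to the size of the library, summed over the first-exon or the last-exon events of a gene, whichever sum was larger. Events at 0 have no row, so a gene without an event in a library was set to 0 there. Differences are K730R minus WT on the log2(FPKM + 1) scale, which understates differences of low genes. A gene was tested where 3 or more of the 18 libraries reached 1 FPKM, which left 9707 of the 13598 genes with a value. The cells carried macrophage markers at high level. Lyz2, lysozyme, was between 5944 and 8464 FPKM in the 6 libraries, Adgre1, which encodes F4/80, between 205 and 267, and Csf1r, the M-CSF receptor, between 277 and 422. The 17 shared macrophage genes with a value summed to between 17978 and 18961 FPKM in WT and between 18340 and 18782 in K730R. Cd14 had no event and was set to 0 in all 6 libraries and Itgam had no value, so these markers could not be checked in values of this kind. Tlr4 itself was 5.72, 4.76 and 5.01 FPKM in WT and 5.10, 4.38 and 4.57 in K730R. These ranges overlapped (difference -0.12, 95% interval -0.43 to 0.19, adjusted p = 0.885), and the level of the transcript does not check the exchange of 1 codon.

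Library 3 of each group stood apart and resembled the other genotype. Across the tested genes, WT library 3 correlated with K730R libraries 1 and 2 at 0.970 and 0.970, against 0.966 and 0.962 with WT libraries 1 and 2. K730R library 3 correlated with WT libraries 1 and 2 at 0.969 and 0.974, against 0.966 and 0.963 with K730R libraries 1 and 2. In 3394 of the 9707 genes (35.0%), both libraries numbered 3 were nearer to the other genotype's remaining 2 libraries than to their own, against 1886 genes (19.4%) for libraries numbered 1 and 2632 (27.1%) for libraries numbered 2. The genes for Reg3b, Reg3g and Lypd8 described below were on the side of the label in all 6 libraries, libraries 3 included. They were picked for their small p in this same comparison, which favours genes that follow the labels. Their place on the side of the label therefore follows in part from that choice. For many of the genes and lists below that rest on libraries 3, the value without them is given too. Whether the labels of these 2 libraries were exchanged was not tested. They were left out because they resembled the other genotype, which by construction widens the difference between the groups, so values without them are descriptions and not support.

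No gene passed the threshold of adjusted p below 0.01 in the comparison of K730R with WT after LPS (limma, 0 of 9707 genes, 0.00%). The lowest adjusted p was 0.0753, shared by 4 genes. At an unadjusted p below 0.05 there were 746 genes (7.69%), of which 226 were higher in K730R (2.33%) and 520 lower (5.36%). The libraries of the groups did not overlap in 322 genes higher in K730R (3.32%) and in 732 genes lower in K730R (7.54%). The median difference over all genes was -0.04, and the median standard error was 0.21. By size, 35 genes were higher by more than 1 log2 unit (0.361%) and 53 lower (0.546%). Of these 88 genes, 37 (42.0%) had groups that did not overlap and 32 (36.4%) had a library set to 0. The median half-width of the 95% interval was 0.44 log2 units over the genes. Of all genes 42.1% lay above 0 and 57.5% below.

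**Figure D1:**
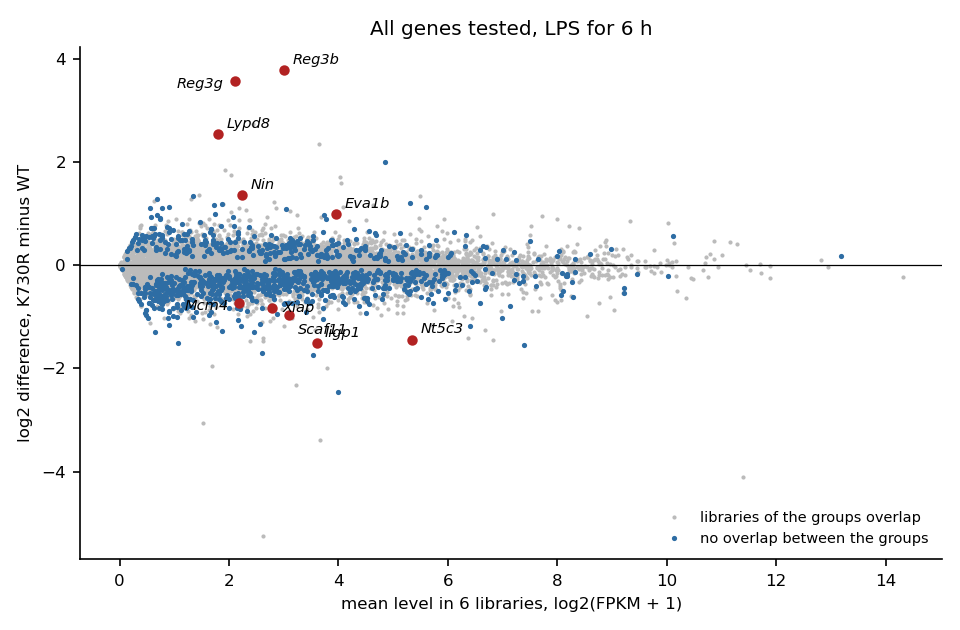
Each point is 1 of the 9707 genes tested. The x axis gives the mean level of the 6 libraries and the y axis the difference, K730R minus WT, both on the log2(FPKM + 1) scale. Blue points are genes whose WT and K730R libraries did not overlap, grey points all other genes, and red points the 10 genes with the smallest p, with Reg3b at 3.77, Reg3g at 3.56 and Iigp1 at -1.51.

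Of the 10 genes with the smallest p, 3 encode proteins of the gut lining and were low in WT. Reg3b (ENSMUSG00000071356, chromosome 6, 78370657 to 78373466) encodes a secreted lectin with antibacterial action. It was 0.0928, 1.40 and 2.89 FPKM in WT and 30.9, 25.8 and 29.5 in K730R. The lowest K730R library was above every WT library, and the difference was 3.77 ± 0.65 (SE, n = 3 per group, adjusted p = 0.0753 by limma). Its neighbour Reg3g (ENSMUSG00000030017, chromosome 6, 78466269 to 78468872), a lectin against Gram-positive bacteria, was 0, 0 and 0.992 FPKM in WT and 16.3, 12.7 and 12.7 in K730R (difference 3.56 ± 0.55 (SE, n = 3 per group), adjusted p = 0.0753 by limma). Lypd8, a protein that keeps flagellated bacteria off the colon epithelium, was 0, 0.589 and 0.913 FPKM in WT and 6.79, 7.87 and 7.47 in K730R (2.53 ± 0.48 (SE, n = 3 per group), adjusted p = 0.111 by limma).

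The whole list of intestinal genes was set beside them, a list written with the values of these genes already known. Of its 32 genes, 29 had a value and 20 were tested. None was called, 16 were higher in K730R and 4 lower, 9 did not overlap between the groups and all 9 were higher (against 3.32% of all genes higher and 7.54% lower), and the median was 0.66, against -0.04 over all genes. The summed level of the list was 3.13, 36.4 and 49.7 FPKM in WT and 91.0, 93.0 and 87.2 in K730R. WT library 1 was at 0 for Fabp1, Fabp2, Apoa1, Apoa4, Epcam, Tff3 and Zg16, whereas the other 5 libraries had values for each of these. Fabp2, a fatty acid binding protein of enterocytes, was 0, 4.07 and 3.72 FPKM in WT and 1.02, 2.30 and 1.22 in K730R, and Sis, sucrase-isomaltase, was 0, 1.03 and 0.709 in WT and 0.541, 0.141 and 0.926 in K730R, so both overlapped between the groups. Fabp1, Apoa1 and Apoa4, also of enterocytes, were 1.02, 0.94 and 0.87, with intervals that included 0, and 1.41, 1.44 and 1.39 without libraries 3. Without LPS the list had a median of 1.62, with mean log2 levels of 0.16, 0.20 and 0.20 in WT and 2.44, 2.07 and 1.76 in K730R. Cdx1, Cdh17 and Reg4 were at 0 in all 6 libraries. Whether RNA of gut tissue has a part in Reg3b, Reg3g and Lypd8 was not tested. Without LPS the same 3 genes were also higher in K730R, by 4.27, 3.51 and 3.29 (adjusted p = 0.00463, 0.00632 and 0.00386 by limma), in a comparison in which 26 of 9707 genes were called (0.268%) and 747 had an unadjusted p below 0.05 (7.70%, with 3.84% higher and 3.85% lower). In that comparison no gene was called higher once WT library 1, WT library 3 or K730R library 2 was left out alone. In TLR4-K810R cells with LPS, Reg3b was 9.26, 0.194 and 0 FPKM, and Reg3g 6.04, 0 and 0.

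Reg3b and Reg3g are neighbours on chromosome 6 that were high in the same 3 of the 6 libraries, so the stretches before their starts are shown, from RefSeq on GRCm38.p6, 250 bases before to 50 bases after the start. Capitals mark the TATA box (TATAAA) and, in Reg3b, a STAT element (TTCNNNGAA). The window of Reg3b is chr6:78370635-78370934 on the plus strand and that of Reg3g is chr6:78468825-78469124 on the minus strand.
Reg3b: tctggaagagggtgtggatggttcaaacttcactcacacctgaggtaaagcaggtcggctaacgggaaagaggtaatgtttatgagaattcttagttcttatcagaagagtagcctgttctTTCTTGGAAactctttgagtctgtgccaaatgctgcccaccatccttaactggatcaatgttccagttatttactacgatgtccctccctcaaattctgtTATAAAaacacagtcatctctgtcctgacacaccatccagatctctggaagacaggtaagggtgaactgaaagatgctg
Reg3g: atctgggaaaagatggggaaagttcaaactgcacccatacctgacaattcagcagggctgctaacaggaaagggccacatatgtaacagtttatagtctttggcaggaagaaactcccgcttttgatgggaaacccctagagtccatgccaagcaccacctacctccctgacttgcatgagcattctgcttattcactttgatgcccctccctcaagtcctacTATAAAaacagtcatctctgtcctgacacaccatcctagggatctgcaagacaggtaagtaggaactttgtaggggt
The TATA box began 29 bases before the start in Reg3b and 27 bases before it in Reg3g. On the strand of the gene, TATAAA was in 8.88% of the 27025 promoter windows and in 4.12% of the windows of tested genes. The STAT element, searched on both strands, was in 8.47% and 6.75% of them. A match describes letters and is no evidence of a bound factor.

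Among the other genes with the smallest p, Iigp1 had the largest difference downwards. It encodes an immunity-related GTPase that disrupts the vacuoles of intracellular pathogens and is induced by interferons. Iigp1 was 25.8, 17.7 and 16.2 FPKM in WT and 4.11, 5.26 and 10.6 in K730R, with every K730R library below every WT library (-1.51 ± 0.25 (SE, n = 3 per group), adjusted p = 0.0753 by limma). K730R library 3 was the nearest to WT, and without both libraries 3 the difference was -1.98 (adjusted p = 0.000295 by limma). TLR4-K810R cells with LPS, which are set against the same WT libraries, had 3.86, 6.57 and 5.26 FPKM. Scaf11, which encodes a splicing-associated factor, was 10.8, 10.4 and 11.9 FPKM in WT and 5.95, 5.10 and 4.52 in K730R (-0.96 ± 0.17 (SE, n = 3 per group), adjusted p = 0.0753 by limma). It was -0.83 without libraries 3, and -1.74 from first exons alone.

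Nt5c3, a pyrimidine nucleotidase that interferon induces, was 69.5, 85.3 and 48.4 FPKM in WT and 38.0, 18.5 and 18.6 in K730R (-1.44, adjusted p = 0.105 by limma). Mcm4, a subunit of the replicative helicase, was 3.96, 5.04 and 5.76 in WT and 2.65, 2.24 and 2.68 in K730R (-0.74, adjusted p = 0.105 by limma). Both were lower in K730R in every library pair between the groups. Xiap, an inhibitor of caspases, was 8.91, 7.53 and 8.21 in WT and 3.99, 3.89 and 4.79 in K730R (-0.82, adjusted p = 0.197 by limma). Nin, which encodes the centrosomal protein ninein and was 1.63, 2.08 and 2.19 in WT and 6.47, 8.24 and 5.33 in K730R (1.36, adjusted p = 0.197 by limma). Eva1b was 8.67, 9.49 and 12.2 in WT and 18.4, 24.3 and 20.4 in K730R (0.99, adjusted p = 0.197 by limma). In these 3 genes the values rest on first exons, and last exons could not be used as a check.

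**Figure D2:**
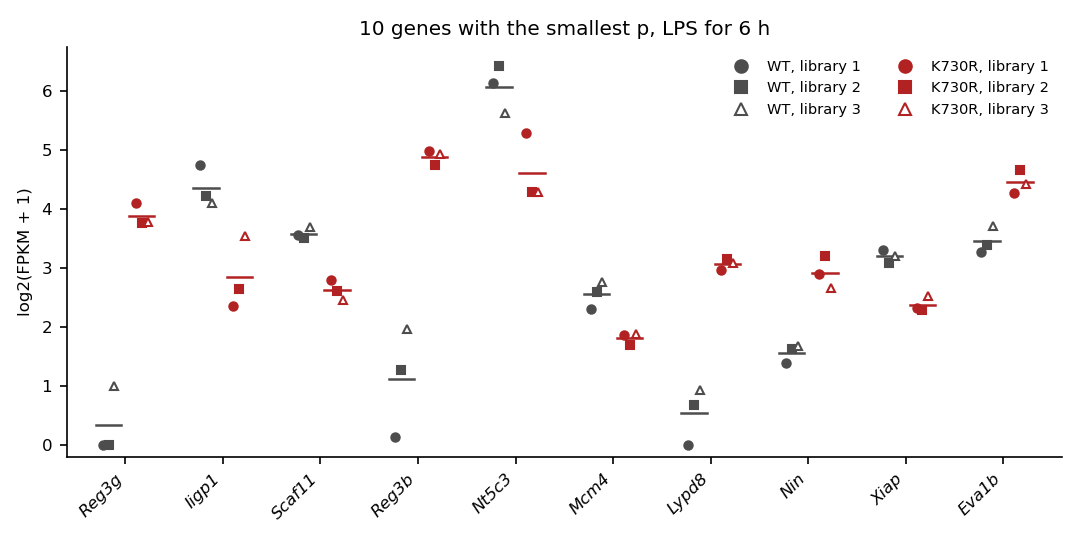
Level of each of the 10 genes with the smallest p in every library, as log2(FPKM + 1), with WT in grey and K730R in red, libraries 1, 2 and 3 as circles, squares and open triangles, and bars for group means (n = 3). The groups do not overlap in any of these 10 genes, and Reg3b, Reg3g, Lypd8, Nin and Eva1b are higher in K730R.

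The largest differences among genes with separated libraries and a mean of at least 5 FPKM included several that rest on how the events of a gene were listed. Nfkbib, which encodes the inhibitor IκBβ, was 9.42, 22.4 and 11.3 FPKM in WT and 48.0, 35.4 and 108 in K730R. The difference was 2.01 (adjusted p = 0.541 by limma), but 4.13 from first exons and 0.26 from last exons. Atp6v1a, a subunit of the lysosomal proton pump, was 24.5, 24.4 and 25.9 in WT and 83.4, 37.2 and 65.9 in K730R, with 1.21 from first exons and 1.22 from last exons (adjusted p = 0.615 by limma). Snap23, a SNARE of exocytosis, was 2.86, 4.59 and 7.24 in WT and 10.7, 12.1 and 10.1 in K730R (1.08, adjusted p = 0.541 by limma).

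In the other direction, Hnrnpd, which encodes the mRNA decay factor AUF1, was 37.9, 47.5 and 26.5 FPKM in WT and 9.95, 0.209 and 22.8 in K730R (-2.45, adjusted p = 0.566 by limma), and it was -1.21 without K730R library 2. Capns1, the small calpain subunit, was 279, 256 and 329 in WT and 42.7, 89.3 and 241 in K730R (-1.55, adjusted p = 0.628 by limma, and -0.96 without K730R library 1). Cd80, a costimulatory ligand, was 7.15, 6.19 and 4.83 in WT and 1.21, 4.41 and 1.50 in K730R (-1.17, adjusted p = 0.541 by limma). Tmem120a was 19.0, 7.55 and 6.77 in WT and 0.217, 4.50 and 4.73 in K730R (-1.71, adjusted p = 0.643 by limma), and its last exons gave 0.12, in the opposite direction. Mcoln2, Ahnak2, Immt, Capza2 and Dnttip2 completed this set, at 1.12, 0.96, -1.29, -1.18 and -1.14. Of these, Mcoln2 was 0.22 without WT library 2 and 0.16 over every first-exon and last-exon event, Immt -0.60 without WT library 1 and Capza2 -0.36 without K730R library 2.

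In the list around the receptor complex, all 5 tested members (Tlr4, Ly96, Lbp, Cd180 and Ly86) were lower in K730R, none of them called. Only Tlr4 and Ly96 among them encode parts of the LPS receptor itself. Ly96, which encodes MD-2, was 15.7, 14.8 and 10.8 FPKM in WT and 10.8, 8.36 and 5.54 in K730R, with the lowest WT and the highest K730R library level (-0.70, 95% interval -1.36 to -0.05, adjusted p = 0.643 by limma). Cd180 and Ly86, the homologous RP105 and MD-1 pair that restrains TLR4, differed by -0.64 and -0.59, with Cd180 at -1.30 without libraries 3. For Ly86, WT library 3 at 27.4 FPKM was lower than WT libraries 1 and 2 at 48.9 and 44.7, and K730R library 3 at 44.2 was higher than K730R libraries 1 and 2 at 20.4 and 18.9. Without libraries 3 it was -1.21 (adjusted p = 0.000323 by limma).

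Of 14 tested adaptors and kinases of the MyD88 arm, 8 were higher and 6 lower in K730R, with a median of 0.03 (0.05 without libraries 3) and a range from -0.28 to 0.36. Myd88 was 79.6, 87.7 and 84.5 FPKM in WT and 84.7, 83.6 and 99.7 in K730R (0.08, 95% interval -0.11 to 0.28, and 0.0097 without libraries 3). Tirap, which encodes MAL, was 10.7, 14.1 and 13.1 in WT and 12.6, 13.7 and 11.8 in K730R (0.02, 95% interval -0.26 to 0.30). Traf6, the ubiquitin ligase below the IRAK kinases, was 6.86, 7.33 and 6.97 in WT and 7.80, 8.40 and 7.49 in K730R, higher without overlap but by 0.14 only (95% interval -0.07 to 0.35). In the TRIF arm, Ticam1, Ticam2 and Ripk1 had no value. Of the 6 tested members 2 were higher and 4 lower, between Azi2 at -0.35 (-0.61 without libraries 3) and Ikbke at 0.01, and Irf3 was 0.01 (95% interval -0.43 to 0.45, and 0.12 without libraries 3).

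Subunits of NF-κB and their inhibitors were higher in K730R in 15 of 16 tested members, with a median of 0.18 against -0.04 over all genes, and none was called. Relb, a subunit of the non-canonical pathway, was 40.9, 39.3 and 41.0 FPKM in WT and 48.3, 54.5 and 45.8 in K730R (0.29, adjusted p = 0.606 by limma). Nfkbia, which encodes IκBα, was 333, 359 and 392 in WT and 395, 453 and 408 in K730R (0.21, adjusted p = 0.649 by limma). Rela and Tnfaip3, the latter encoding the inhibitor A20, also did not overlap between the groups, at 0.20 and 0.10. The list had a median of 0.20 without LPS and of 0.22 after LPS when libraries 3 were left out. Of the 17 tested enzymes that add or remove acetyl groups, 8 were higher and 9 lower. Crebbp, whose product CBP is the acetyltransferase the study followed, was 4.45, 6.22 and 4.53 in WT and 4.49, 4.37 and 4.12 in K730R (-0.18, 95% interval -0.54 to 0.19).

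NF-κB target genes were split by kind and by library. Of 37 tested members 25 were higher and 12 lower in K730R, with a median of 0.17 (0.29 without libraries 3 and 0.08 without K730R library 2), and none was called. Tnf was 227, 258 and 268 FPKM in WT and 323, 330 and 259 in K730R (0.27, 95% interval -0.01 to 0.55, and 0.43 without libraries 3). Il1b was 1383, 1431 and 2026 in WT and 2869, 2559 and 1430 in K730R (0.46, 95% interval -0.09 to 1.01, 0.95 without libraries 3, and 0.27 without K730R library 1). In both, K730R library 3 lay within the range of the WT libraries. Plaur, the urokinase receptor, was 255, 284 and 320 in WT and 396, 433 and 315 in K730R (0.41, adjusted p = 0.566 by limma, and 0.62 without libraries 3), and Ptgs2, which encodes cyclooxygenase-2, 35.6, 36.6 and 33.6 in WT and 72.9, 69.5 and 35.5 in K730R (0.67, adjusted p = 0.566 by limma).

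In the neutrophil chemokines, each library 3 lay nearer to the other genotype. Cxcl1 was 137 and 119 FPKM in WT libraries 1 and 2 and 397 in WT library 3, and 515 and 598 in K730R libraries 1 and 2 and 134 in K730R library 3. Its difference was 0.89 (95% interval -0.14 to 1.91, adjusted p = 0.686 by limma) in all libraries and 2.11 (adjusted p = 0.000323 by limma) without libraries 3. Cxcl2 was 355, 370 and 836 in WT and 1208, 1384 and 393 in K730R, and Cxcl3 was 553, 519 and 1676 in WT and 2058, 2457 and 523 in K730R. Their differences of 0.86 and 0.82 in all libraries became 1.83 and 2.07 without libraries 3. In TLR4-K810R cells with LPS, Cxcl1 was 323, 277 and 482.

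Il6, Il12a, Csf3 and Ccl3 had the same pattern. Il6 was 25.3, 16.0 and 48.3 FPKM in WT and 43.9, 74.9 and 16.4 in K730R (0.48, 95% interval -0.41 to 1.36, and 1.47 without libraries 3, adjusted p = 0.00756 by limma). It was 0.12 without WT library 2, -0.0031 without K730R library 2 and -0.36 without the libraries numbered 2 in all groups, so its direction turned. Il12a, the p35 chain of IL-12, was 15.0, 17.8 and 31.9 in WT and 34.1, 46.5 and 13.9 in K730R (1.24 without libraries 3). Il12b, the p40 chain, was closer between libraries, at 10.1, 13.2 and 10.7 in WT and 15.6, 18.9 and 12.4 in K730R (0.42, 95% interval -0.01 to 0.85). Il15 was 6.26, 10.3 and 2.54 in WT and 3.99, 5.75 and 7.26 in K730R (-0.02, 95% interval -0.77 to 0.73, -0.64 without libraries 3, and 0.365 without WT library 2), and its sign turned in 8 of 21 alternatives. Stat4, Ifng, Hif1a and Ifnb1, genes the study names, had no value here. Without libraries 3, 7 NF-κB target genes were called higher (Cxcl1, Cxcl2, Cxcl3, Ccl3, Il6, Il12a and Csf3) and 2 lower (Ccl7 and Plau), in a comparison that called 161 of 9707 genes (1.66%), 66 higher (0.680%) and 95 lower (0.979%). With libraries 3 left out of all groups instead, Il6 no longer passed (adjusted p = 0.02767 by limma). There Il1b and Ptgs2 were called higher and Ccl2 and Nos2 lower, so the genes called depended on the version.

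Nos2 and the monocyte chemokines ran the other way in the same libraries. Nos2, the inducible nitric oxide synthase, was 406, 423 and 199 FPKM in WT and 144, 123 and 441 in K730R (-0.71, 95% interval -1.63 to 0.22, -1.63 without libraries 3, and -0.36 without K730R library 2). Ccl2, the main attractant of monocytes, was 292, 249 and 219 in WT and 90.2, 111 and 242 in K730R (-0.90, adjusted p = 0.566 by limma, and -1.42 without libraries 3). Ccl7 was 118, 97.6 and 39.8 in WT and 23.4, 18.6 and 90.1 in K730R (-1.15, adjusted p = 0.615 by limma, and -2.31 without libraries 3). Ccl12 was 16.8, 13.7 and 6.87 in WT and 2.56, 2.72 and 17.5 in K730R (-1.02 and, without libraries 3, -2.15). Of 23 tested chemokines 9 were higher and 14 lower. At an unadjusted p below 0.05 there were 2 higher and 9 lower, against 2.33% and 5.36% over all genes. Ccl6 was lower without overlap and less dependent on libraries 3, at 141, 125 and 107 in WT and 73.3, 62.7 and 86.9 in K730R (-0.74, adjusted p = 0.541 by limma).

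**Figure D3:**
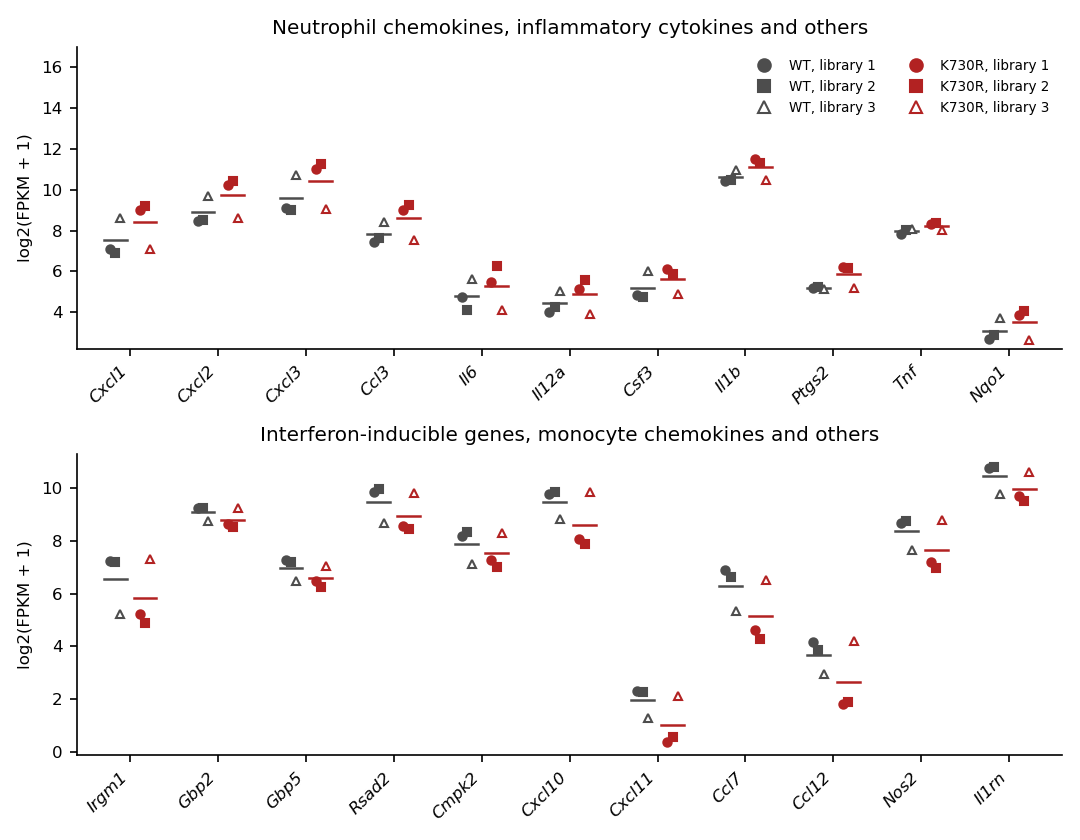
Level in every library, as log2(FPKM + 1), of 22 genes chosen after their values were seen to show the pattern of libraries 3, with WT in grey, K730R in red, libraries 3 as open triangles and bars for group means (n = 3). For Cxcl1, WT library 3 (397 FPKM) lies beside K730R libraries 1 and 2 (515 and 598) and K730R library 3 (134) beside WT libraries 1 and 2, and for Irgm1 the triangles lie the opposite way.

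Interferon-stimulated genes were lower in K730R after LPS in 38 of 42 tested members and higher in 4, and none was called. Without LPS their median was -1.06, and after LPS it was -0.25. Without K730R library 2 the median was -0.11 and without WT library 2 it was -0.14, and without the libraries numbered 2 in all groups it was -0.01, with 19 higher. Without LPS the mean log2 level of the list was 3.83, 3.88 and 3.80 in WT and 2.74, 2.67 and 2.62 in K730R, without overlap. After LPS it was 7.02, 6.90 and 6.51 in the WT libraries and 6.30, 6.08 and 6.79 in the K730R libraries, so K730R library 3 lay above WT library 3. Without libraries 3 the counts were 40 lower and 2 higher, the median was -0.69, and 6 members were called lower, against 0.979% of all genes. Rsad2, which encodes the antiviral protein viperin, was 907, 993 and 402 FPKM in WT and 377, 344 and 898 in K730R (-0.54, 95% interval -1.23 to 0.14, and -1.39 without libraries 3). Cmpk2, its neighbour in the genome, was 288, 319 and 139 in WT and 152, 127 and 313 in K730R (-0.36 and, without libraries 3, -1.12). Cxcl10, an interferon-induced attractant of T cells, was 865, 907 and 450 in WT and 266, 233 and 913 in K730R (-0.88, adjusted p = 0.643 by limma, and -1.82 without libraries 3).

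Some interferon-stimulated genes did not follow libraries 3. Oas1a, a sensor of double-stranded RNA that activates RNase L, was 332, 374 and 276 FPKM in WT and 251, 208 and 199 in K730R, without overlap (-0.57, 95% interval -0.83 to -0.31, adjusted p = 0.198 by limma). Zbp1, a sensor of nucleic acids that triggers necroptosis, was 243, 240 and 238 in WT and 231, 227 and 244 in K730R (-0.04, 95% interval -0.27 to 0.19, and -0.08 without libraries 3). Isg15, a ubiquitin-like modifier, was 254, 0 and 212 in WT and set to 0 in all 3 K730R libraries. No fold is given because a WT library was at 0 as well, and the gene is 1 of the 38 counted as lower. Of the interferon-inducible GTPases, 7 of 8 tested members were lower after LPS, with a median of -0.59, against -0.76 without LPS. The median after LPS was -0.996 without libraries 3, -0.36 without K730R library 2 and -0.36 without WT library 1. Irgm1, which controls the other immunity-related GTPases, was 149, 145 and 36.5 in WT and 36.4, 28.9 and 159 in K730R (-0.73, 95% interval -1.87 to 0.40, and -2.15 without libraries 3). Gbp2, a guanylate-binding protein, was 597, 601 and 429 in WT and 398, 362 and 609 in K730R (-0.27, 95% interval -0.69 to 0.15, and -0.66 without libraries 3).

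The promoter windows of interferon-stimulated genes and NF-κB targets were searched for the letters of 2 elements, since the medians of these lists had opposite signs. The interferon response element (GAAA, any 2 bases, GAAA, on both strands) was in 17 of the 32 windows found for interferon-stimulated genes (53.1%), in all 5 found for the GTPases, in 2 of 25 for NF-κB targets and in 3.49% of all windows. The NF-κB element (GGG, any 2 bases, TTTCC, on both strands) was in none of the 32, in 8 of the 25 NF-κB target windows (32.0%) and in 1.62% of all windows. Cxcl2 and Oas3 are shown as 1 window of each kind, with capitals on the element named. The window of Cxcl2 is chr5:90903649-90903948 on the plus strand and that of Oas3 is chr5:120777610-120777909 on the minus strand, both from RefSeq on GRCm38.p6.
Cxcl2: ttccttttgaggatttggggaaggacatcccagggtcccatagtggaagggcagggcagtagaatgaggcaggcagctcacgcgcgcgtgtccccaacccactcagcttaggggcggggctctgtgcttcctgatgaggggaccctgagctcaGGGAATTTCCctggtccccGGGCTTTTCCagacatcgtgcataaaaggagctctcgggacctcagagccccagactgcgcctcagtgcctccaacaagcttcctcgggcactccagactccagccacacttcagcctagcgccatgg
Oas3: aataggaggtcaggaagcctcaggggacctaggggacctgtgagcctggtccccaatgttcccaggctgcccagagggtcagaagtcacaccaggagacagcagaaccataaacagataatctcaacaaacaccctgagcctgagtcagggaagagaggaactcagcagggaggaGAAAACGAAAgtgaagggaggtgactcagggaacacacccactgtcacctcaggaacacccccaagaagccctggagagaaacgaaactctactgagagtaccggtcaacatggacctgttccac
In Cxcl2 the NF-κB element began 97 and 78 bases before the start, and in Oas3 the interferon response element began 75 bases before it. The difference between K730R and WT was 0.86 for Cxcl2 and 0.09 for Oas3, and 1.83 and -0.15 without libraries 3.

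**Figure D4:**
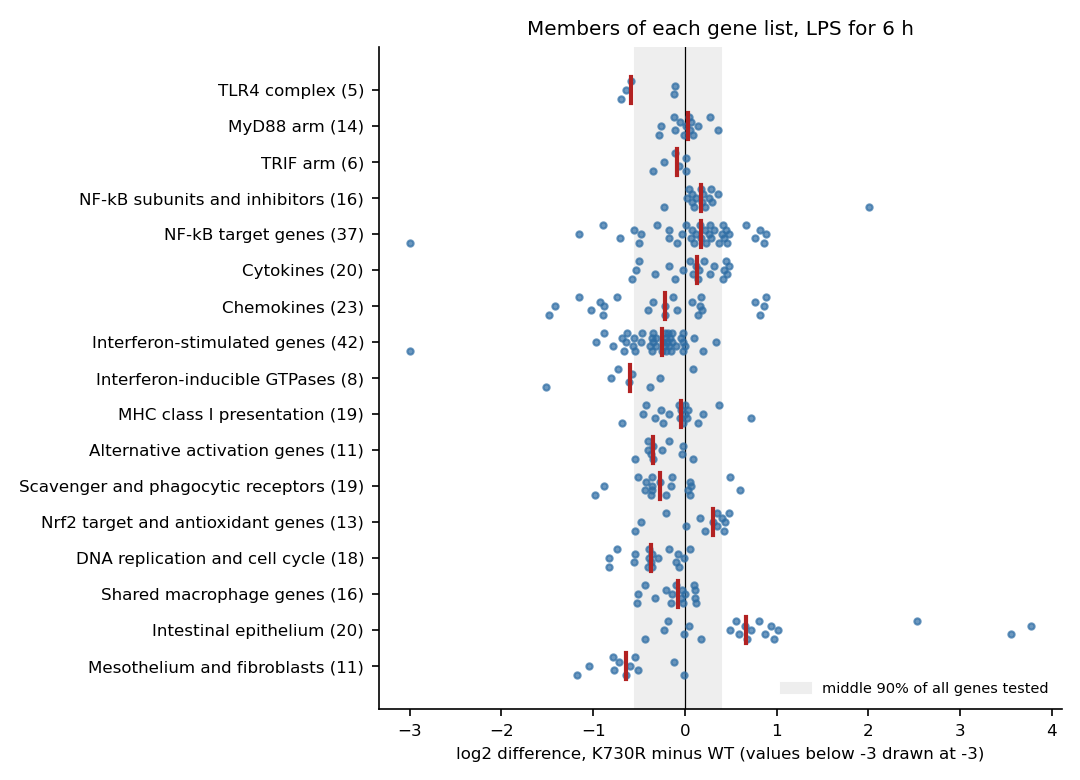
Difference of each tested member, K730R minus WT on the log2(FPKM + 1) scale, for 17 gene lists, with the number tested in brackets and the list median as a red bar. The grey band spans the 5th to the 95th percentile of all genes tested, from -0.54 to 0.40, and 2 members below -3 (Isg15 and Saa3, each with libraries at or near 0) are drawn at -3.

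Genes called lower in K730R without LPS had a smaller median difference after LPS. Among them, the test of the difference between LPS responses passed only for Oas3, Ifit3, H2-M2 and Zbp1. Without LPS, 26 genes passed the threshold, 21 lower and 5 higher. After LPS 15 of the 21 were still below 0, as were 57.5% of all genes, and their median moved from -1.46 to -0.08. The 21 genes were picked for their difference without LPS, so a smaller one in other libraries follows in part from that choice. Without libraries 3 their median after LPS was -0.21, with 17 below 0. Irf7, the transcription factor that amplifies interferon production, differed by -3.03 without LPS (adjusted p = 0.000371 by limma) and by -0.02 after LPS (95% interval -0.78 to 0.73, and -0.12 without libraries 3). All 5 that were higher without LPS were higher after LPS as well (Reg3b, Reg3g, Lypd8, Muc3 and Fcgbp). All 5 are in the intestinal list, which was written with their values already known, so their place in it is no finding.

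For 4 genes the difference between the LPS responses of K730R and WT passed the threshold (4 of 9707, 0.0412%), and 681 had an unadjusted p below 0.05 (7.02%, with 2.27% larger and 4.75% smaller in K730R). Oas3 was 41.2, 33.3 and 48.7 FPKM in WT and 10.4, 10.04 and 7.69 in K730R without LPS, and 117, 125 and 95.2 in WT and 118, 100 and 143 in K730R after LPS. Its response was larger in K730R by 2.11 ± 0.25 (SE, n = 3 per group, adjusted p = 0.0012 by limma). Ifit3, an antiviral protein of the tetratricopeptide family, went from 30.0, 34.6 and 34.1 to 538, 545 and 386 in WT, and from 7.22, 6.00 and 6.01 to 393, 344 and 552 in K730R. Zbp1 and H2-M2, a class I-like gene, gave the same order. All 4 genes started lower in K730R and ended at levels that overlapped those of WT. Without libraries 3 these 4 responses differed by between 1.61 and 1.86, with adjusted p between 0.0005532 and 0.008177 by limma. With libraries 3 of all groups left out, Ifit3 (1.57, adjusted p = 0.01334) and Oas3 (1.61, adjusted p = 0.03608) no longer passed. With the libraries numbered 1 or those numbered 2 left out in all groups, none of the 4 passed (adjusted p between 0.05983 and 0.4009 by limma).

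**Figure D5:**
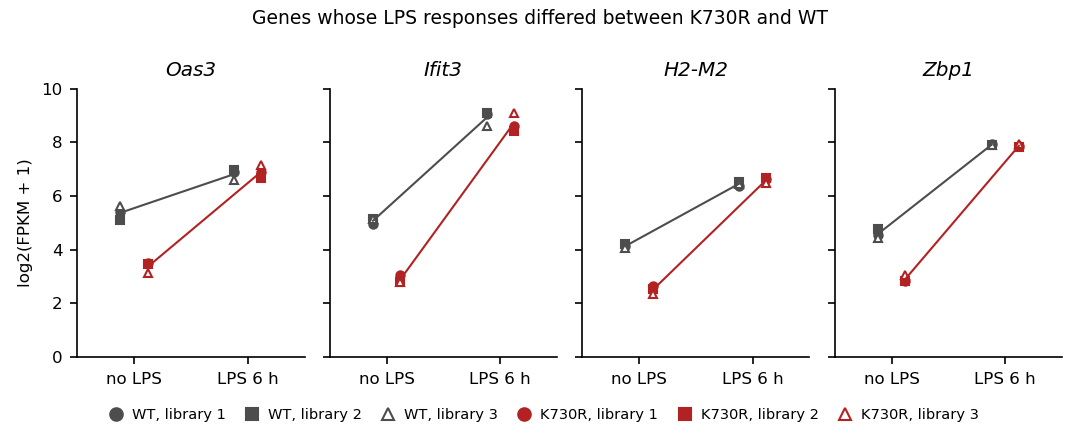
Level of Oas3, Ifit3, H2-M2 and Zbp1 in every library without LPS and after LPS for 6 h, as log2(FPKM + 1), with WT in grey and K730R in red and lines joining group means (n = 3). The groups are apart without LPS and overlap after LPS in all 4 genes.

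Genes of antioxidant defence were higher in K730R in 10 of 13 tested members, with a median of 0.30. Hmox1, heme oxygenase, was 1772, 1765 and 2434 FPKM in WT and 3365, 3205 and 1756 in K730R (0.44, 95% interval -0.05 to 0.92, and 0.89 without libraries 3). Nqo1, a quinone reductase, was 5.44, 6.30 and 12.3 in WT and 13.5, 15.5 and 5.28 in K730R (0.42, 95% interval -0.20 to 1.05, and 1.17 without libraries 3). Without libraries 3 the list had a median of 0.76, against 0.0072 over all genes, and 4 members called higher, against 0.680% of all genes.

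Genes of alternative activation were lower in 10 of 11 tested members, with a median of -0.35. Retnla, the secreted protein Fizz1, was 25.3, 29.5 and 13.4 FPKM in WT and 10.6, 13.6 and 30.2 in K730R (-0.38, 95% interval -1.08 to 0.33, and -1.12 without libraries 3). Among Fc receptors, Fcgr4 was 219, 201 and 112 in WT and 64.0, 60.0 and 200.4 in K730R (-0.89, adjusted p = 0.620 by limma, and -1.74 without libraries 3). Fcgr2b, the inhibitory Fc receptor, was 603, 460 and 525 in WT and 519, 175 and 208 in K730R (-0.98, adjusted p = 0.539 by limma, and -0.80 without libraries 3). K730R library 1 alone lay with WT, and without it the difference was -1.46, which follows in part from the choice of that library. Presentation genes had medians of -0.04 over 19 class I members and -0.05 over 9 class II members, and of -0.21 and -0.20 without libraries 3.

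Markers of other cells in a peritoneal harvest differed between the groups in part. All 11 tested genes of mesothelium and fibroblasts were lower in K730R, with a median of -0.64. Without libraries 3, 9 were lower and 2 higher, with a median of -0.26. The summed level of the 13 with a value was 179, 73.8 and 257 FPKM in WT and 87.0, 86.4 and 82.6 in K730R, so WT library 2 lay below K730R. Dcn, decorin, was 21.5, 9.86 and 26.9 in WT and 9.18, 6.55 and 9.06 in K730R (-1.05, adjusted p = 0.566 by limma). Of 18 genes of DNA replication and division 17 were lower, with a median of -0.37. Without libraries 3, 13 were lower and 5 higher, with a median of -0.18. Ccnb1, cyclin B1, was 1.50, 0.731 and 3.21 in WT and 0.554, 0.609 and 0.313 in K730R (-0.82, and -0.39 without libraries 3). The mean log2 level of the list was 1.98, 1.62 and 2.30 in WT and 1.63, 1.66 and 1.54 in K730R. In bulk RNA, fewer cells of a type and less RNA per cell cannot be told apart, and the part of these cells in the differences above was not tested.

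Igkc, the constant part of the immunoglobulin kappa chain, was 20.1, 21.3 and 19.6 FPKM in WT and 6.89, 4.86 and 4.59 in K730R, without overlap (-1.74, 95% interval -2.60 to -0.88, adjusted p = 0.291 by limma). Of the 12 B cell genes with a value 5 were tested and 4 were lower, the summed level was between 27.3 and 31.9 in WT and between 11.5 and 13.4 in K730R. Without Igkc the sum was between 5.98 and 11.8 in WT and between 6.53 and 7.46 in K730R, so it overlapped, and Bank1 was at 0 in all 6 libraries. Of 5 tested mast cell genes 4 were lower, with a median of -0.58 (-1.13 without libraries 3). Cpa3, mast cell carboxypeptidase, was 1.16, 1.22 and 0.458 in WT and at 0 in all 3 K730R libraries. The mast cell list summed to between 14.0 and 25.4 in WT and between 8.50 and 23.5 in K730R. Of the 11 T and NK cell genes with a value, Cd3e, Cd4, Cd8a and Trac were at 0 in all 6 libraries. The list summed to between 31.8 and 66.8 in WT and between 20.7 and 35.3 in K730R, nearly all of it Il7r, an interleukin receptor chain and the only member tested, at 55.7, 66.6 and 31.3 in WT and 34.4, 20.5 and 22.3 in K730R (-0.93, adjusted p = 0.539 by limma). The neutrophil list summed to between 305 and 388 in WT and between 293 and 395 in K730R.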

How the data were processed

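RNA-seq of 18 libraries was used, 1 table each. Per the file headers, the deposited values are FPKM of transcript events, summed by the authors, with events at 0 left out. Tools behind them are not given in the sources used here. The labels name the build hg18, a human build, but of 14138 Ensembl numbers 14126 matched mouse GRCm38, whose positions are given. Events off the strand or span of their gene were left out (6.24% of first-exon and last-exon FPKM). A gene's value was the larger of the sums over first exons and over last exons. limma 3.58.1 in R 4.3.3 was fitted to log2(FPKM + 1) over all 6 groups, with Benjamini-Hochberg adjustment (two-sided, threshold 0.01), after it was tested on simulated data. Counts were not used and the depth is unknown. The genes named were the TLR4 lists, the genes the study names, the 10 smallest p, the 10 largest differences per direction among separated genes with a mean of 5 FPKM or more, genes whose LPS responses differed, and the defining and most different members of each list. Groups and lists were chosen with earlier results of these data known. Deviations from the group mean correlated at -0.04, -0.18 and -0.32 between LPS libraries with the same number. Deviations cancel out within a group, so these values cannot decide whether the numbers pair libraries. The libraries were fitted as unpaired. Tools other than limma were Python 3.11.15 with pandas 2.3.3 and numpy 2.4.6. Pseudocounts, filters, scalings, exon sums, library weights and left-out libraries were tried as alternatives.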

Additional observations from a re-analysis of the deposited data

Results flagged for a closer look

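For 4 genes the response to LPS differed between K730R and WT by a test of the difference itself. The response was larger in K730R by 2.11 for Oas3, by 1.99 for Ifit3, by 1.78 for H2-M2 and by 1.65 for Zbp1, on the log2(FPKM + 1) scale (adjusted p = 0.0012, 0.00103, 0.00534 and 0.00015 by limma). Over the alternatives the difference lay between 1.47 and 2.50 for Oas3 and between 1.57 and 2.26 for Ifit3. Zbp1 passed the threshold in 24 of 26 alternatives, Ifit3 in 24 of 28, Oas3 in 23 of 28 and H2-M2 in 11 of 28. The highest adjusted p was 0.437 for Oas3, with last exons alone, and 0.401 for H2-M2. None of the 4 passed without the libraries numbered 1 or those numbered 2 in all groups.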

How the results depend on the processing

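In 16 of 23 alternatives no gene was called between K730R and WT after LPS. Library weights called 1 (Iigp1), and leaving out 1 library called between 0 and 2 (Fcgr2b without K730R library 1, Timp1 and Iigp1 without K730R library 3). Leaving out the libraries numbered 1, 2 or 3 in all groups called 2, 1 and 94 genes, and leaving out both LPS libraries 3, an alternative chosen after seeing the data, called 161. The replicate block called 0 after LPS, 3 for the responses and 11 without LPS. The same samples share only a number, so the block is no paired analysis.

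For the difference between responses, 2 genes were called with only the groups compared, 2 with last exons alone, 2 others without libraries numbered 1, 0 without those numbered 2, 30 without both LPS libraries 3, and 7 at a threshold of 0.05. Without LPS, library weights called 61 genes, sums within 1.1 times 17, a threshold of 0.05 51, leaving out 1 library between 11 and 16, and leaving out numbers 1, 2 and 3 called 10, 4 and 15. Of the genes called with 1 library left out, between 0 and 3 were higher in K730R.

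The median of interferon-stimulated genes moved from -0.25 to -0.69 without libraries 3, in all groups or in the LPS groups, and to -0.01 without libraries numbered 2 and -0.14 without those numbered 1. That of the GTPases lay between -0.996 and -0.17 and that of NF-κB targets between 0.08 and 0.29 over the left-out libraries. Nos2 was -0.31 without libraries numbered 1 and -0.17 without those numbered 2. Il6 was -0.0031 without K730R library 2, 1.06 without K730R library 3 and -0.36 without libraries numbered 2. Il15 took the opposite sign at a pseudocount of 0.1 (0.0059), with median-of-ratios scaling (0.0289), with first exons (0.0184) and without libraries numbered 1 (0.24) or 2 (0.34), and lay between -0.47 and 0.37 without 1 library (0.365 without WT library 2). Tmem120a was 0.12 with last exons alone. The causes were not tested. No counts were given, so no limit from depth can be stated, and 31 genes were set to 0 in a library beside a replicate above 5 FPKM.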
